A study of Mus musculus with 21 samples.

Results

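Regulators of G protein signaling (RGS) were examined in microglia and infiltrating myeloid cells after traumatic brain injury (TBI). The genes described are Rgs1, Rgs2, Rgs10, Rgs14, Rgs16, Rgs18 and Rgs19, 7 of the 21 RGS genes listed for the mouse and 7 of 45706 genes in the deposited table. They were chosen by symbol, with earlier results of these data known, and Rgs1 was selected on its lower measured level in infiltrating myeloid cells of mutant mice. The comparison of those cells between genotypes is therefore given as a description, without a test. All 7 genes were among the 23815 genes that passed the filter of 5 counts over all libraries.

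The study asked how the binding of fibrin to the integrin CD11b/CD18 shapes innate immune cells after TBI. Adult male mice on a C57BL/6 background underwent controlled cortical impact (CCI), in which a piston strikes the exposed cortex, and tissue around the lesion was taken 1 d or 7 d later. Fgg γ390–396A mice carry a knock-in mutation of the fibrinogen gamma chain that blocks the binding of fibrin to CD11b/CD18 and leaves coagulation intact, and wild-type (WT) mice were the comparison. Sham controls had the scalp incision and craniotomy without an impact and were labelled as WT.

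Microglia (Mg) were sorted as CD45lowCD11b+ cells, 40000 per library, and infiltrating myeloid cells (Mp) as CD45hiCD11b+ cells, 25000 per library. There were 7 groups of 3 libraries, or 21 in all. Microglia were collected from sham controls and, 1 d or 7 d after CCI, from each genotype. No day of collection is given for the sham controls, and the same sham libraries served for both times. A difference from sham controls may therefore also hold the time since surgery. Infiltrating myeloid cells were collected from each genotype 1 d after CCI. Each library held the cells of 2 brains pooled at random, so the spread between libraries is a spread between pools. There was no sham group of the mutant, and a difference between injured mutant mice and sham controls holds both the genotype and the injury.

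RGS proteins are GTPase-activating proteins. A receptor coupled to a heterotrimeric G protein loads the alpha subunit with GTP, and an RGS protein speeds the hydrolysis of that GTP and so ends the signal. In leukocytes they act behind chemoattractant, purine and lipid receptors, many of which couple to Gi, and Rgs10 is known as an abundant RGS gene of microglia.

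Rgs2, Rgs1 and Rgs18 lie in a row on chromosome 1 of GRCm38, all on the minus strand. Rgs2 (ENSMUSG00000026360), whose protein acts mainly on Gq, spans chr1:143999338-144004161. Rgs1 (ENSMUSG00000026358), a Gi and Gq regulator of lymphocytes and myeloid cells, spans chr1:144242296-144249242, a gap of 0.24 Mb. Rgs18 (ENSMUSG00000026357), best known from platelets and their precursors, spans chr1:144752683-144775435, a further gap of 0.5 Mb. Rgs13 and Rgs21 are the 2 protein-coding genes in those gaps, 1 in each. Rgs16 lies 8.96 Mb beyond Rgs18 on the plus strand (chr1:153740349-153745468), Rgs19 on chromosome 2 (chr2:181688419-181693977, minus), Rgs10 on chromosome 7 (chr7:128373621-128418758, minus) and Rgs14 on chromosome 13 (chr13:55369732-55384687, plus). Neighbours in the row differed in level: Rgs2 was among the most abundant of these genes in microglia, and Rgs18 was near the limit of detection there. Rgs13 and Rgs21 had 0 counts in the 21 libraries. Rgs2, Rgs1 and Rgs18 were each higher in infiltrating cells than in microglia of the same genotype at 1 d, as given below, with Rgs1 untested. Rgs16 overlaps the antisense gene Gm28513, and Rgs10 overlaps the transcript Gm15503 on its own strand, so reads of these pairs could not be told apart with certainty.

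The upstream sequences of Rgs2 and Rgs10 are shown because these genes were the ones that passed the test in microglia after injury. They are the bases immediately before the first exon at the start RefSeq gives on GRCm38.p6, written 5′ to 3′ on the strand of the gene. For Rgs2 this is chr1:144004162-144004399 (minus, 238 bases) and for Rgs10 chr7:128418174-128418422 (minus, 249 bases). A further GENCODE transcript of Rgs10 starts upstream of that window, with its first exon at chr7:128418581-128418758, so the window lies within the gene span given above and outside the exons of Rgs10. Capitals mark matches, on either strand, to the cAMP response element core TGACG, the CCAAT box CCAAT and the GC box GGGCGG.
Rgs2 upstream: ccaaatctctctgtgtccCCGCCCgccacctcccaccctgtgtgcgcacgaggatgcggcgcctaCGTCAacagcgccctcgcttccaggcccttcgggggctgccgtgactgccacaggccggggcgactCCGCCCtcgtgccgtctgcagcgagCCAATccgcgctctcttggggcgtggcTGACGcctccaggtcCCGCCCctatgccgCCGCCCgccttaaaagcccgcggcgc
Rgs10 upstream: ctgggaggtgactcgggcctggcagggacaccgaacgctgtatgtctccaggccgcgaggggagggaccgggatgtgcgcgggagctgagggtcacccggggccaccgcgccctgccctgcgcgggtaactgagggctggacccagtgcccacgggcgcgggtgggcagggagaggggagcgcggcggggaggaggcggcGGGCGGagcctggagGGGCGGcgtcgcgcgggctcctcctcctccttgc
The Rgs2 window held 2 matches to TGACG, 1 to CCAAT and 4 to GGGCGG, and none of these matches overlapped. The Rgs10 window held 2 matches to GGGCGG and none to the other motifs. Of 32851 RefSeq windows of 250 bases, 17.8% held TGACG, 33.8% held CCAAT and 32.7% held GGGCGG on at least 1 strand. The AP-1 site TGANTCA (6.75% of windows), the PU.1 core GAGGAA (23.3%) and the TATA box TATAAA (12.4%) had no match before either gene. Of the 7 genes, 4 were matched in the promoter table: Rgs2, Rgs10, Rgs16 and Rgs19. The genes Rgs1, Rgs14 and Rgs18 were not.

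The libraries held 18896957 to 51875767 counts, with a median of 27001646, of which 43.0% to 58.5% fell on ribosomal RNA genes. Values are given below as CPM, the counts scaled to a common library total with TMM factors, and 3 counts correspond to 0.0448 to 0.158 CPM. The deposited values have gene length divided out, so levels of different genes can be set side by side within a library. Fgg itself had 0 counts in all sham and WT libraries and 12, 20 and 1 counts over the 3 libraries of mutant microglia at 1 d, at 7 d and mutant infiltrating cells, too few to check the genotype labels by sequence or level. The sorted cells matched their labels: 10 microglia markers summed to 4250 to 13800 CPM in microglia libraries and 452 to 1140 CPM in infiltrating cells, and 10 monocyte and macrophage markers to 7.87 to 216 CPM and 3450 to 4970 CPM. The lists are not exclusive, since 10 neutrophil markers summed to 2520 to 13000 CPM in infiltrating cells and up to 775 CPM in microglia. Sham control replicate 1 stood apart in a list of 14 genes known to respond to tissue dissociation, at 1690 CPM against 331 and 443 CPM in the other sham libraries. In these bulk samples, fewer cells of a type and less RNA per cell cannot be told apart.

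In microglia of sham controls, Rgs10 and Rgs2 were the most abundant of the 7 genes. Rgs10 was at 296 CPM ± 26.4 (SD, n = 3) and Rgs2 at 205 CPM ± 32.5, followed by Rgs19 at 60.2 CPM ± 6.55 and Rgs1 at 42.9 CPM ± 14.2. Rgs14 was far lower at 1.09 CPM ± 0.52, Rgs18 was at 0.101 CPM ± 0.0874, and Rgs16 was represented by 1 count in 1 of the 3 sham libraries. The summed level of the 7 genes was 606 CPM ± 38.1 in sham controls. In WT microglia it was 312 CPM ± 24.4 at 1 d post-CCI and 532 CPM ± 50.3 at 7 d, and in mutant microglia 374 CPM ± 38.3 and 558 CPM ± 10.5. Infiltrating myeloid cells held 831 CPM ± 125 in WT and 516 CPM ± 9.23 in Fgg γ390–396A mice. The sum includes Rgs1, which was selected on its lower level in the mutant infiltrating cells. Rgs1 had a mean of 469 CPM in WT and 167 CPM in mutant infiltrating cells. The genotype difference in the sum is therefore a description and does not show a fall of the 7 genes as a set.

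The make-up of that sum differed between the cell types. Rgs10 made up 43.4% to 53.9% of it in the sham libraries, and 41.9% to 64.7% in the injured microglia libraries. In infiltrating myeloid cells Rgs10 made up 11.5% ± 2.18 (WT) and 16.3% ± 0.665 (mutant), below its share in every microglia library. Rgs1 made up 4.78% to 8.91% in sham microglia, and 17.5% to 28.1% (WT) and 4.23% to 18.5% (mutant) in microglia at 1 d. Its share was 55.2% to 57.3% in WT infiltrating cells and 25.5% to 43.1% in mutant infiltrating cells. The latter range overlapped that of WT microglia at 1 d. These shares include the values by which Rgs1 was noted.

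**Figure D1:**
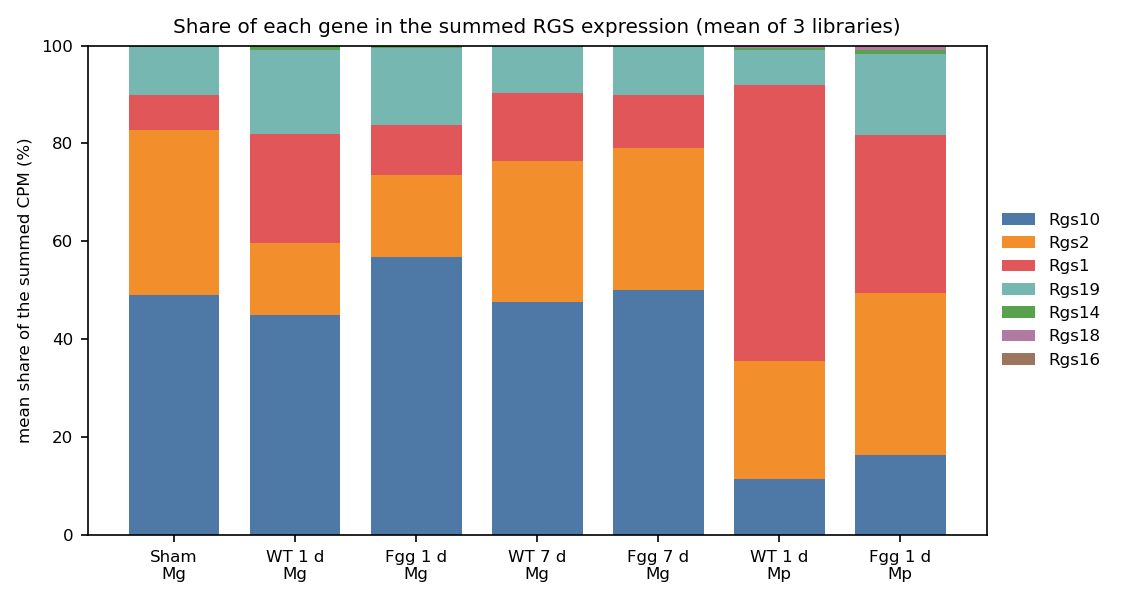
Mean share of each of the 7 RGS genes in their summed CPM (percent, y axis) for the 7 groups (x axis), averaged over 3 libraries. Rgs10 holds 45.0% to 56.7% in the 5 microglia groups and 11.5% to 16.3% in infiltrating myeloid cells, where Rgs1 holds 56.4% (WT) and 32.2% (Fgg γ390–396A).

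The first comparison asked what injury did to RGS expression in microglia. A gene passed when its log2 fold change exceeded 1 in size with an adjusted p under 0.05 in the quasi-likelihood test of edgeR, with Benjamini-Hochberg adjustment over all genes tested. The p-values measure the spread between pools. Rgs2 fell at 1 d post-CCI in both genotypes and rose again between 1 d and 7 d. Its values were 243, 184 and 190 CPM in the sham libraries, 65.9, 40.2 and 32.9 CPM in WT mice at 1 d, and 97.3, 46.5 and 48.4 CPM in Fgg γ390–396A mice at 1 d. All 6 injured libraries at 1 d lay below all 3 sham libraries. At 7 d Rgs2 was at 151, 153 and 155 CPM in WT mice and 177, 143 and 165 CPM in mutant mice, and these 6 libraries lay between the 1 d and the sham libraries.

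The log2 fold change of Rgs2 at 1 d was -2.15 ± 0.27 (SE, adjusted p = 1.3e-05) in WT mice and -1.68 ± 0.27 (adjusted p = 0.00027) in Fgg γ390–396A mice, both against the same 3 sham libraries. The sham mean was 4.43 times the WT mean and 3.21 times the mutant mean. From 1 d to 7 d Rgs2 rose by 1.72 ± 0.27 on the log2 scale in WT mice (adjusted p = 0.00027) and by 1.34 ± 0.26 in mutant mice (adjusted p = 0.0038), in edgeR's quasi-likelihood test. At 7 d the difference from sham controls was -0.43 ± 0.26 (adjusted p = 0.54) and -0.34 ± 0.26 (adjusted p = 0.81), and did not pass the test. The highest sham value was in replicate 1, the library that stood apart in the dissociation genes, and without it the 1 d changes were -2.01 and -1.54.

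Rgs10 showed the same order of groups with smaller differences. It was at 280, 326 and 282 CPM in sham controls, 161, 133 and 128 CPM in WT mice at 1 d, and 204, 213 and 213 CPM in Fgg γ390–396A mice at 1 d. No 2 of these groups overlapped, and the mutant libraries lay between the others. At 7 d Rgs10 was at 290, 205 and 268 CPM in WT mice and 285, 308 and 247 CPM in mutant mice, and both groups overlapped the sham controls.

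In WT mice at 1 d Rgs10 fell by 1.07 ± 0.19 on the log2 scale (adjusted p = 0.00044, edgeR), to a mean of 141 CPM ± 17.8 from 296 CPM. This call sits at the bar on the fold: without sham replicate 2, WT replicate 2 or WT replicate 3 the log2 fold change was -1.0, -1.0 and -0.98, and the gene no longer passed, with adjusted p between 0.0034 and 0.0056. In Fgg γ390–396A mice at 1 d the log2 fold change was -0.49 ± 0.19 (adjusted p = 0.13, edgeR). DESeq2's Wald test gave -0.62 there (adjusted p = 0.0042), under the bar on the fold. From 1 d to 7 d Rgs10 changed by 0.85 ± 0.19 in WT mice (adjusted p = 0.0056, edgeR), under the bar on the fold. In mutant mice that change was 0.41 ± 0.19 in edgeR (adjusted p = 0.28). It was 0.51 in DESeq2 (adjusted p = 0.033), under the same bar.

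The summed level of the microglia markers was low where both genes were low. The 10 markers summed to 12200 to 13800 CPM in sham controls, 4250 to 5940 CPM in WT and 6030 to 7550 CPM in mutant microglia at 1 d, and 8280 to 10200 CPM at 7 d. They did not all go one way: at 1 d in WT mice 7 of the 10 lay below the sham libraries without overlap, Cx3cr1 and Olfml3 overlapped them, and Fcrls lay above them at 901 to 1230 against 626 to 816 CPM. In mutant mice at 1 d 8 lay below, Fcrls among them at 196 to 281 CPM, and Cx3cr1 and Olfml3 overlapped. Monocyte and macrophage markers summed to 7.87 to 48.7 CPM in sham controls and 38.1 to 216 CPM in the 6 injured libraries at 1 d, of which 2 mutant libraries lay within the sham range. Their part in the differences of Rgs2 and Rgs10 was not tested.

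**Figure D2:**
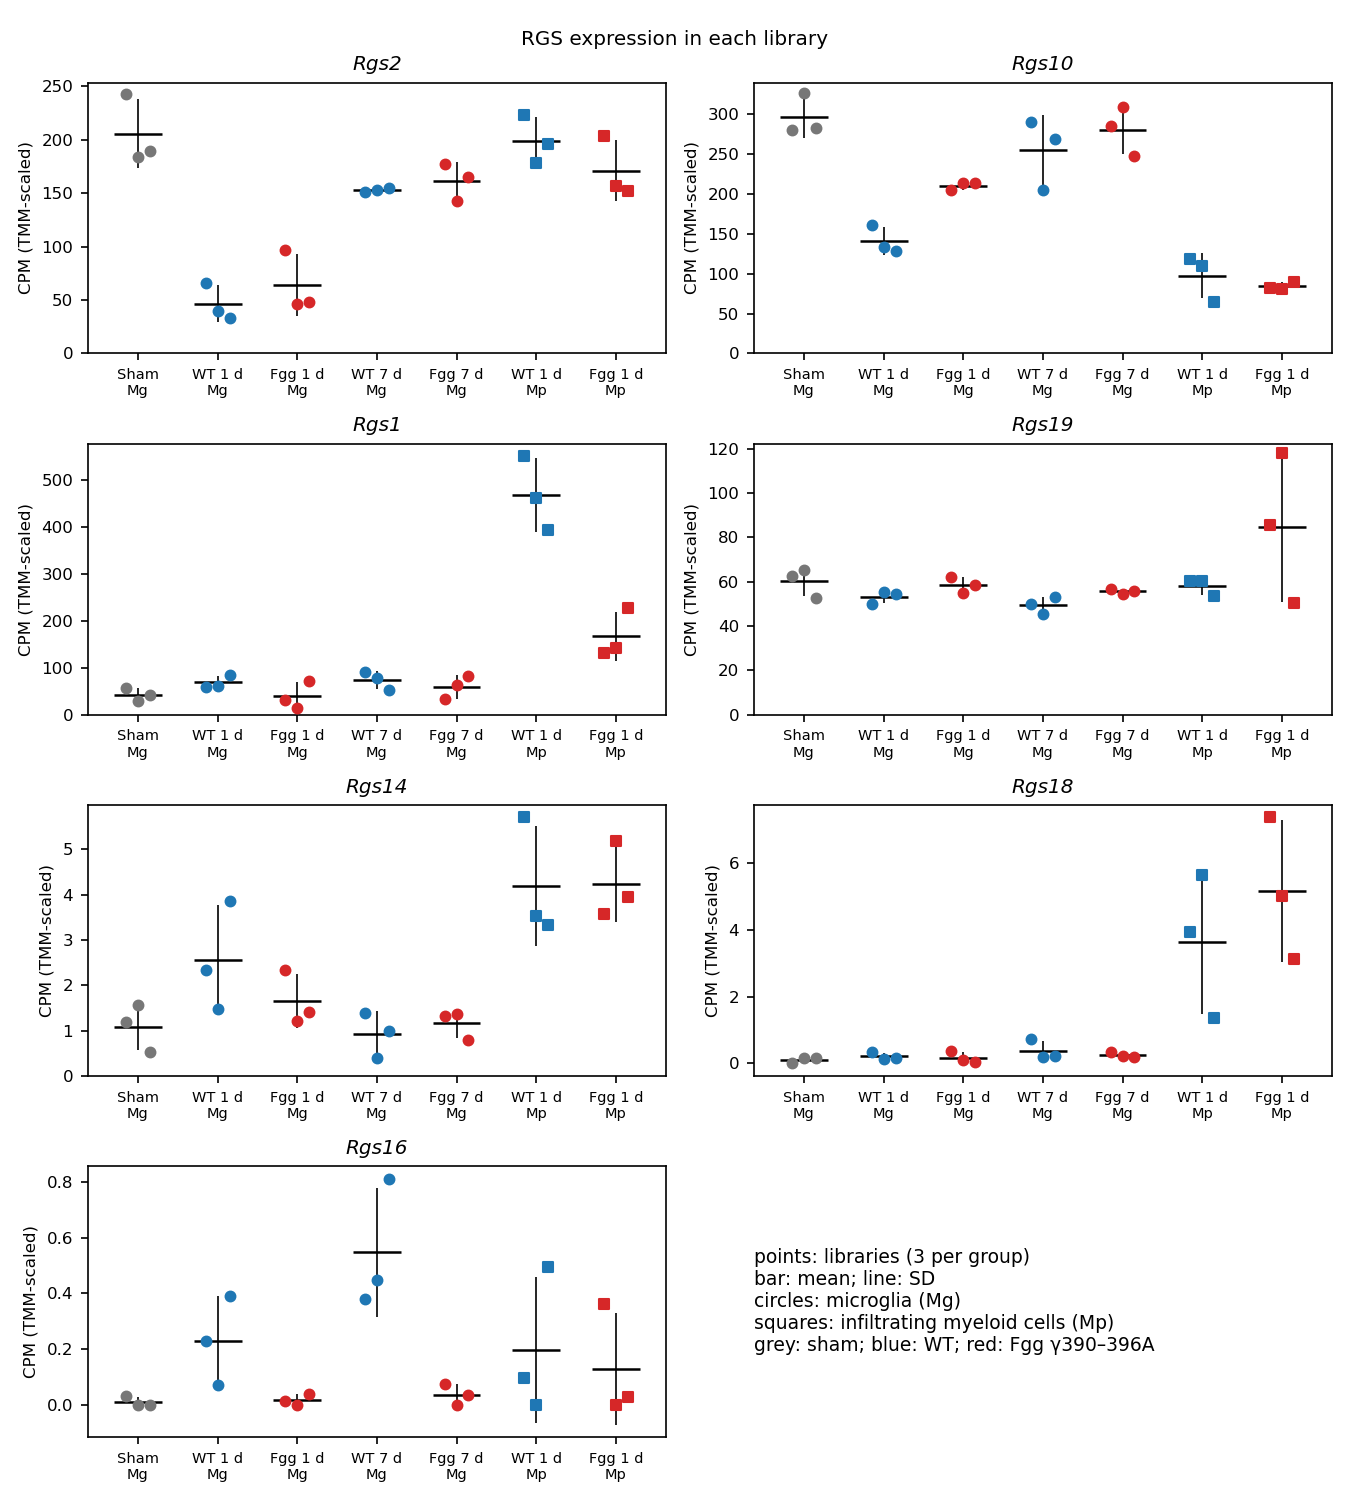
CPM after TMM scaling (y axes, each from its own range) of the 7 RGS genes in every library, for sham controls and both genotypes at 1 d and 7 d post-CCI (x axes). Points are libraries, bars are means and lines are SDs of 3 libraries. Rgs2 and Rgs10 are low in microglia at 1 d, Rgs1 and Rgs18 are high in infiltrating myeloid cells, and Rgs16 does not exceed 0.812 CPM.

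Rgs1 did not pass the test in any comparison with sham microglia, and its libraries varied widely within groups. It was at 57.4, 29 and 42.3 CPM in sham controls, 59.4, 61.7 and 85.8 CPM in WT mice at 1 d and 31.3, 13.9 and 73 CPM in mutant mice at 1 d. At 7 d it was at 91, 78 and 53 CPM in WT and 32.7, 62.9 and 83 CPM in mutant mice. The WT libraries at 1 d lay above the sham libraries by a narrow margin, and the mutant libraries at both times overlapped them. The log2 fold change against sham controls was 0.69 ± 0.43 (adjusted p = 0.32) in WT mice at 1 d, 0.79 ± 0.43 (adjusted p = 0.5) in WT mice at 7 d and 0.47 ± 0.43 (adjusted p = 0.89) in mutant mice at 7 d. With library totals in place of TMM scaling, which moved the median of all genes by -0.67 in the first of these comparisons, the value for WT mice at 1 d was -0.10.

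Rgs19, whose protein (also called GAIP) acts on Gi alpha subunits, was the steadiest of the 7 genes in microglia. Its 15 microglia libraries lay between 45.6 and 65.1 CPM. Against sham controls its log2 fold change was -0.18 ± 0.2 in WT mice at 1 d (95% interval -0.57 to 0.22), -0.04 ± 0.2 in mutant mice at 1 d, -0.28 ± 0.2 in WT mice at 7 d and -0.12 ± 0.2 in mutant mice at 7 d, and the 95% intervals of these 4 values lay between -0.68 and 0.35.

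Rgs14, a scaffold that also binds Ras-family proteins, was at 0.406 to 3.86 CPM in microglia. Its mean was 1.09 CPM in sham controls, 2.56 CPM ± 1.21 in WT mice at 1 d and 0.932 CPM ± 0.494 in WT mice at 7 d. The WT libraries at 1 d lay above those at 7 d without overlap, at 41 to 99 against 10 to 29 counts. The log2 fold change was 1.24 ± 0.53 at 1 d against sham controls (adjusted p = 0.13) and -1.46 ± 0.53 from 1 d to 7 d (adjusted p = 0.095), and neither passed in edgeR, whereas DESeq2's Wald test called the latter (-1.38, adjusted p = 0.038).

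Rgs16, an inducible Gi and Gq regulator, and Rgs18 were close to the counting limit in microglia. In WT mice Rgs16 had 6, 2 and 10 counts per library at 1 d, and 8, 11 and 21 at 7 d. The sham libraries had 1, 0 and 0 counts. Mutant microglia had 1, 0 and 1 counts at the earlier time and 3, 0 and 1 at the later. The sham and mutant values, and WT replicate 2 at 1 d, lie at or under 3 counts, so no fold is given. Rgs16 did not pass in edgeR in WT mice at 7 d against sham controls (adjusted p = 0.23) and passed in DESeq2 (adjusted p = 0.048). Rgs18 had 0 to 25 counts per microglia library, or at most 0.717 CPM.

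Of the 7 genes, 2 passed the test in WT microglia at 1 d against sham controls (Rgs2 and Rgs10, both lower), where 12.3% of all genes tested passed. In Fgg γ390–396A microglia at 1 d, 1 passed (Rgs2), against 6.64% of all genes. Over the 6 genes other than Rgs16 the median log2 fold change was 0.26 in WT and -0.08 in mutant mice, where that of all genes was 0. At 7 d against sham controls 0 of 7 passed in either genotype, against 2.02% (WT) and 0.663% (mutant) of all genes. At an unadjusted p under 0.05 in edgeR the count at 7 d was 1 of 7 in WT mice (Rgs16, which DESeq2 also called), against 11.7% of all genes. In mutant mice it was 0 of 7, against 7.59% of all genes, and DESeq2 called 0. From 1 d to 7 d, 1 gene passed in each genotype (Rgs2, higher), against 7.06% (WT) and 3.54% (mutant) of all genes.

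**Figure D3:**
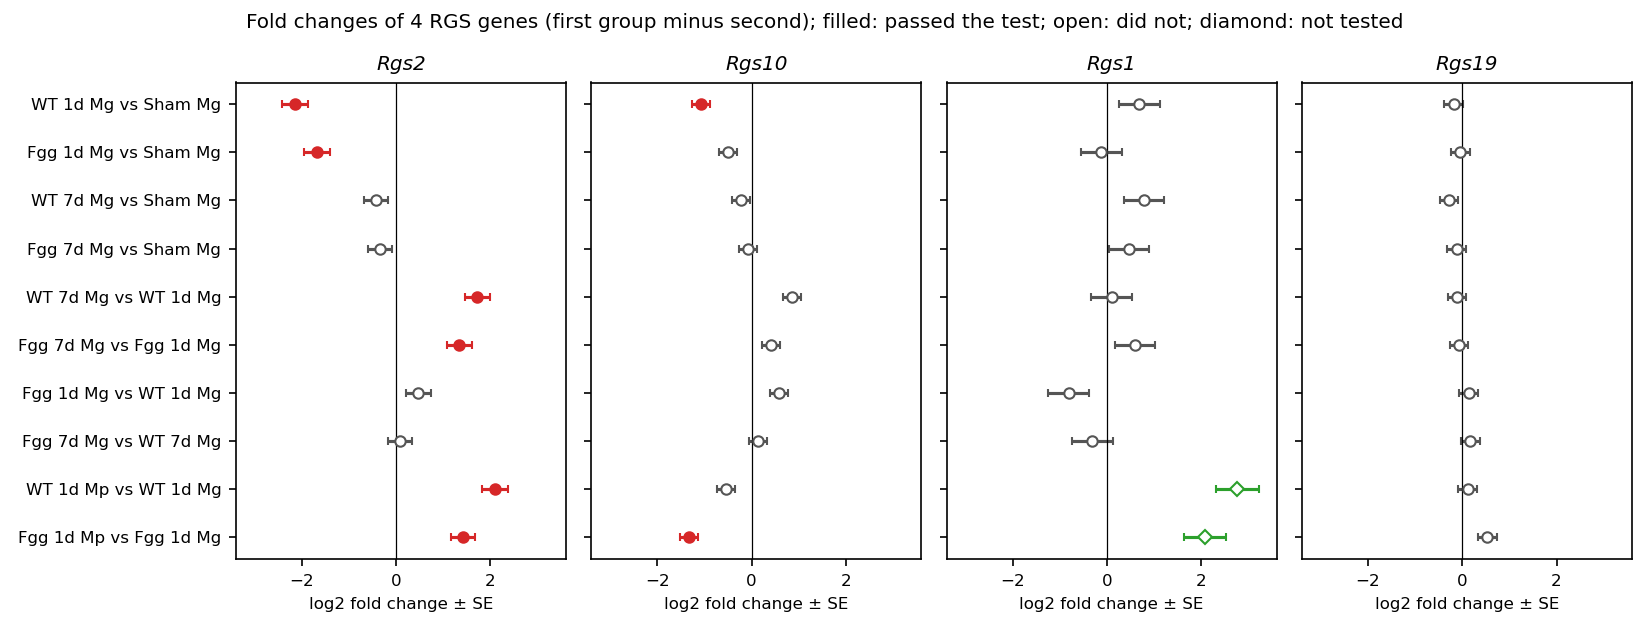
Log2 fold change ± SE (x axes) of Rgs2, Rgs10, Rgs1 and Rgs19 in 10 comparisons (y axis, first group against second), with filled points for those that passed edgeR's test, open points for those that did not and diamonds for values given without a test. Rgs2 runs from -2.15 (WT 1 d against sham microglia) to 2.10 (WT infiltrating cells against WT microglia), whereas the values of Rgs19 stay between -0.28 and 0.53.

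The next comparison asked whether the loss of fibrin binding to CD11b/CD18 changed RGS expression in microglia. Here the adjusted p had to be under 0.1, with the same bar on the fold, and 0 of 7 passed at 1 d or at 7 d, against 0.0546% and 0.0378% of all genes. At an unadjusted p under 0.05 edgeR gave 1 of 7 at 1 d (Rgs10) and 0 at 7 d, against 5.08% and 3.34% of all genes, and DESeq2 called 0 at both times. Rgs10 was higher in all 3 mutant libraries than in all 3 WT libraries at 1 d (210 CPM ± 5.29 against 141 CPM ± 17.8), with a log2 fold change of 0.58 ± 0.19, a 95% interval of 0.21 to 0.95 and an adjusted p of 0.86. The fall of Rgs10 in WT mice and its smaller difference in mutant mice are thus not shown to differ after adjustment. The summed microglia markers were also higher in the mutant libraries, at 6030 to 7550 against 4250 to 5940 CPM. They did not all go one way, since Fcrls was lower in the mutant libraries without overlap, and their part in the Rgs10 difference was not tested.

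Rgs2 at 1 d had a genotype difference of 0.47 ± 0.26 (interval -0.04 to 0.98) and Rgs1 of -0.81 ± 0.43 (interval -1.66 to 0.04), and the libraries of both genes overlapped between genotypes. For Rgs1, the value was -1.60 without mutant replicate 3 and -0.40 without mutant replicate 2. At 7 d the genotype difference was 0.08 ± 0.26 for Rgs2, 0.14 ± 0.19 for Rgs10 and -0.31 ± 0.43 for Rgs1. Rgs16 was higher in all WT than in all mutant libraries at both times, with 18 against 2 counts over the 3 libraries at 1 d and 40 against 4 at 7 d. At 1 d the lowest WT library had 2 counts and the highest mutant library 1, both under the floor of 3 counts, so that gap is within counting error. It did not pass the test at 1 d (adjusted p = 0.89 in edgeR and 0.59 in DESeq2) or at 7 d (1.0 and 0.94). The genotype difference at 7 d minus that at 1 d was tested as an interaction at an adjusted p under 0.1, and 0 of 7 genes passed, as did 0% of all genes. The count at an unadjusted p under 0.05 in edgeR was also 0 of 7, against 2.74% of all genes, as was the count by DESeq2.

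Infiltrating myeloid cells were compared with microglia of the same genotype at 1 d, over the 6 genes other than Rgs1. Rgs2 and Rgs18 were higher in infiltrating cells in both genotypes, and Rgs10 was lower in Fgg γ390–396A mice. Of the 6 genes 2 passed in WT mice, where 11.9% of all genes did, and 3 in mutant mice, where 16.7% did. Without Rgs16, whose counts are few, the median log2 fold change of the remaining 5 was 0.71 in WT and 1.35 in mutant mice, against 0 and -0.13 for all genes.

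Rgs2 was at 223, 178 and 196 CPM in WT infiltrating cells and 204, 157 and 152 CPM in mutant infiltrating cells. Every one of these libraries lay above the microglia libraries of either genotype at 1 d, and infiltrating cells of both genotypes overlapped sham microglia. The log2 fold change against microglia was 2.10 ± 0.27 in WT mice (adjusted p = 1.8e-05, edgeR) and 1.42 ± 0.26 in mutant mice (adjusted p = 0.00065). With library totals in place of TMM scaling the mutant value was 0.93 and no longer passed (adjusted p = 0.073), in a comparison where that scaling moved the median of all genes by -0.41.

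Rgs10 was at 118, 109 and 64.9 CPM in WT infiltrating cells and 82.2, 80.4 and 89.7 CPM in mutant infiltrating cells, below the microglia of the same genotype in all 6 libraries. It fell by 1.32 ± 0.19 on the log2 scale in mutant mice (adjusted p = 5.7e-05), and the WT value was -0.54 ± 0.19 (adjusted p = 0.064, edgeR). DESeq2 gave -0.48 in WT mice (adjusted p = 0.032), under the bar on the fold. Whether the WT and mutant values differ was not tested.

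Rgs18 had the largest fold change of the 7 genes in this comparison. It had 162, 107 and 30 counts in WT infiltrating cells, or 3.92, 5.63 and 1.35 CPM, against 9, 4 and 4 counts in WT microglia. In mutant infiltrating cells it had 163, 203 and 111 counts, or 7.36, 5.01 and 3.11 CPM, against 25, 4 and 1 counts in mutant microglia. Every infiltrating library lay above every microglia library. The log2 fold change was 4.06 ± 0.94 in WT mice (adjusted p = 0.0047, edgeR) and 4.80 ± 0.95 in mutant mice (adjusted p = 0.0011). The mutant value rests on few microglia counts and was 6.05 without mutant microglia replicate 1.

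Because Rgs18 is known from platelets, their markers are given beside it. Of 8 platelet markers, Pf4 reached 927 to 1820 CPM in WT and 955 to 1700 CPM in mutant infiltrating cells, and Ppbp 33.7 to 141 and 35.8 to 98.5 CPM. The other defining markers were at or near 0 in the same libraries: Itga2b did not exceed 0.27 CPM, Gp5 and Treml1 0.0726 CPM and Gp9 1.88 CPM, and Tubb1 had 0 counts. Neutrophil markers summed to 8290, 3470 and 13000 CPM in WT and 2520, 5720 and 5090 CPM in mutant infiltrating cells. The part of platelets, neutrophils or monocytes in the level of Rgs18 was not tested.

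Rgs14 and Rgs19 did not pass in either genotype. Rgs14 was at 3.34 to 5.71 CPM in the 6 infiltrating libraries, with a log2 fold change of 0.71 ± 0.51 in WT mice (adjusted p = 0.38) and 1.35 ± 0.52 in mutant mice (adjusted p = 0.073). The mutant infiltrating libraries lay above the mutant microglia libraries without overlap, and DESeq2 called that difference (1.46, adjusted p = 0.012). Rgs19 was at 60.2, 60.1 and 53.6 CPM in WT and 85.7, 118 and 50.4 CPM in mutant infiltrating cells. The lowest mutant library lay below all WT libraries and the other 2 above them. Its log2 fold change against mutant microglia was 0.53 ± 0.2 (adjusted p = 0.069), which became 0.22 without mutant infiltrating replicate 2 and 0.10 with library totals in place of TMM scaling. DESeq2 gave 0.66 for this difference (adjusted p = 0.0079), under the bar on the fold. Rgs16 had 0 to 11 counts per infiltrating library.

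Rgs1 was by far the most abundant of the 7 genes in WT infiltrating cells, and its values there are a description because the gene was noted for them. It was at 551, 463 and 394 CPM in WT infiltrating cells and 131, 143 and 227 CPM in Fgg γ390–396A infiltrating cells. The highest mutant library lay below the lowest WT library, and both groups lay above all 15 microglia libraries, of which the highest was at 91 CPM. The WT mean of 469 CPM ± 78.9 was 2.81 times the mutant mean of 167 CPM ± 52.1, and the log2 difference was -1.49 ± 0.44. Against microglia of the same genotype the log2 difference of Rgs1 was 2.77 ± 0.46 in WT and 2.08 ± 0.45 in mutant mice.

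The other 6 genes overlapped between the genotypes in infiltrating cells. The share of all genes that overlapped was not counted. The overlaps and gaps given here are therefore a description and do not set Rgs1 apart. Their log2 differences, mutant minus WT, were -0.21 ± 0.26 for Rgs2, -0.21 ± 0.19 for Rgs10, 0.01 ± 0.51 for Rgs14, 0.50 ± 0.81 for Rgs18 and 0.55 ± 0.2 for Rgs19, and Rgs16 had 15 counts over the WT and 9 over the mutant libraries. In this contrast 0.453% of all genes tested passed the criteria used between genotypes. The order of the group means of Rgs1 was WT infiltrating cells, mutant infiltrating cells and then the 5 microglia groups, of which each overlapped its neighbour in the order. Ordered in the same way, Rgs2 had a gap between neighbouring groups only where WT microglia at 7 d were followed by mutant microglia at 1 d. Rgs10 had gaps between mutant and WT microglia at 1 d and between the latter and WT infiltrating cells, and Rgs18 between WT infiltrating cells and WT microglia at 7 d. All neighbours overlapped for Rgs14, Rgs16 and Rgs19.

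The 14 dissociation genes, which include the immediate early genes Fos and Jun and the phosphatase gene Dusp1, were high in the same cells as Rgs1. They summed to 4900, 3000 and 2640 CPM in WT and 3240, 1830 and 3330 CPM in mutant infiltrating cells, and to 329 to 1690 CPM in microglia. Within WT infiltrating cells, sham microglia and microglia of both genotypes at 1 d, the 3 libraries had the same order in Rgs1 and in the summed list. Within mutant infiltrating cells and both groups at 7 d they did not. Between genotypes the infiltrating cells overlapped in the list and not in Rgs1. Monocyte and macrophage markers summed to 3740 to 4970 CPM in WT and 3450 to 3690 CPM in mutant infiltrating cells, without overlap, and neutrophil markers overlapped between them. The part of these lists in the level of Rgs1 was not tested.

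**Figure D4:**
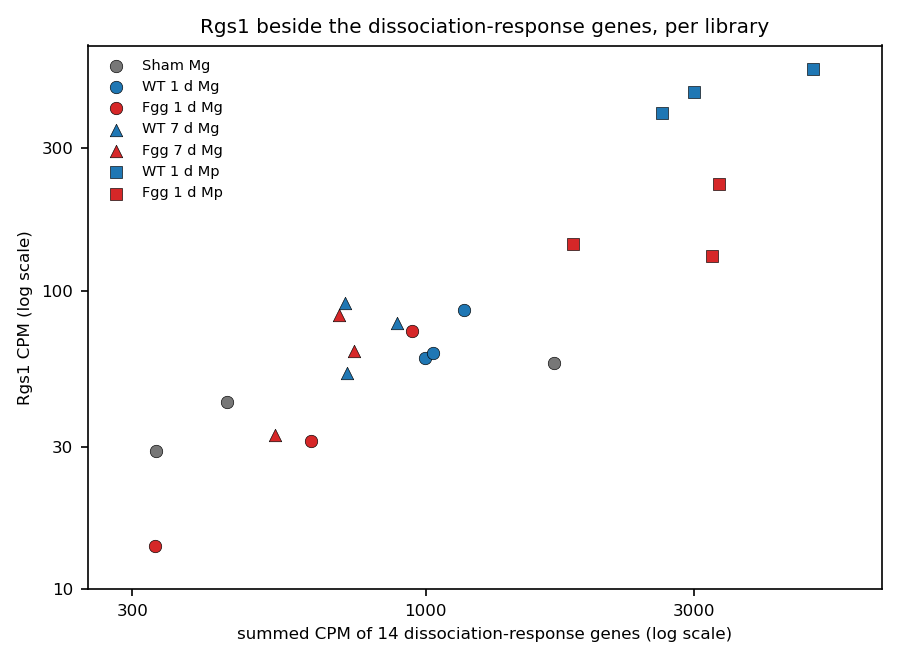
Rgs1 (CPM, y axis, log scale) against the summed CPM of 14 dissociation-response genes (x axis, log scale) in the 21 libraries, coloured by genotype and shaped by cell type and time. WT infiltrating libraries (394 to 551 CPM of Rgs1) lie above mutant infiltrating libraries (131 to 227 CPM), while their dissociation sums overlap at 2640 to 4900 and 1830 to 3330 CPM.

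Genes whose levels followed each of the 7 most closely were sought among 5118 protein-coding genes with a mean of at least 10 CPM, by Pearson's r of log2 CPM over the 21 libraries. These values are descriptive, since the libraries share groups and cell types. Rgs1 was closest to the chemokine-binding receptor gene Ccrl2 (r = 0.932), Dusp1 (0.927) and the NF-kB inhibitor gene Nfkbia (0.918). Rgs2 was closest to Irf2bp2 (0.952), the inhibitory receptor gene Cd300a (0.934) and Ptafr (0.925), the receptor for platelet-activating factor and itself on the list of Gi-coupled receptors. Rgs10 was closest to Usp21 (0.974), Mtus1 (0.968) and Mlxipl (0.966), and Rgs18 to Crip1 (0.953), Mcemp1 (0.953) and Cd74 (0.952). The closest genes of Rgs14 (Pilrb1, 0.89), Rgs19 (Smad2, 0.814) and Rgs16 (Golgb1, 0.691) were less like them.

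Of the 14 other RGS genes, Rgs13 and Rgs21 had no counts and Rgs3 and Rgs12 had more than 3 counts in all 21 libraries. Rgs3, a regulator of Gi and Gq signals, ranged from 3.54 to 56.6 CPM and Rgs12 from 0.27 to 2.04 CPM, while none of the remaining 10 exceeded 2.01 CPM in any library. Rgs3 was at 18.1, 14.8 and 17.9 CPM in sham microglia, and had a mean of 9.57 CPM ± 3.6 in WT and 7.71 CPM ± 3.72 in mutant microglia at 1 d. In infiltrating cells it was at 27.3, 17 and 15.5 CPM in WT and 56.6, 36.8 and 23.8 CPM in mutant mice. In infiltrating cells against microglia 1 of the 12 tested passed in mutant mice, against 16.7% of all genes, and this was Rgs3 (log2 fold change 2.33 ± 0.38, adjusted p = 0.00018, edgeR). In WT mice 0 of 12 passed, against 11.9% of all genes. In each genotype 3 of the 12 had an unadjusted p under 0.05 in edgeR, where 27.4% (WT) and 33.1% (mutant) of all genes did. DESeq2 called Rgs11 and Rgs3 in mutant and Rgs3 in WT mice.

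RGS proteins act between receptors and effectors, and 100 further genes of the pathway were listed, of which 95 were tested. In WT microglia at 1 d against sham controls 17 of them passed, or 17.9% against 12.3% of all genes, with 6 higher and 11 lower. The Gi-coupled receptors held 9 of those 17, out of 21 tested, with 4 higher and 5 lower. The G alpha subunits held 1 of 13, the beta and gamma subunits 2 of 15 and the receptor kinases and arrestins 1 of 7. Other G protein regulators held 1 of 10, effectors such as adenylyl cyclases 3 of 17 and other RGS genes 0 of 12. Of those 12, 1 (Rgs3) had an unadjusted p under 0.05 in edgeR, where 27.7% of all genes did, and DESeq2 called 0. With library totals in place of TMM scaling 32 passed, with 4 higher, and that split is given because the share of higher genes moved with the scaling.

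The receptors named by the size of their change went in both directions. C5ar1, the receptor for complement fragment C5a, rose from 50.6 CPM ± 25.5 in sham microglia to 353 CPM ± 125 in WT microglia at 1 d (log2 fold change 2.80 ± 0.33, adjusted p = 6.4e-06, edgeR). Hcar2, the receptor for niacin and beta-hydroxybutyrate, rose from 2.73 to 41.5 CPM (3.93 ± 0.41, adjusted p = 1.9e-06). P2ry12, the ADP receptor of resting microglia and one of the 10 microglia markers, fell by 3.34 ± 0.46 on the log2 scale from 4000 CPM ± 39 to 395 CPM ± 247 (adjusted p = 3.3e-05). The receptor gene Gpr34, another of those markers, fell by 2.03 ± 0.36 (adjusted p = 0.00039). Gpsm2 passed as higher at a mean of 0.603 CPM and Adcy8 as lower at a mean of 1.80 CPM in sham controls, each with at most 3 counts per library in the other group.

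In Fgg γ390–396A microglia at 1 d against sham controls 11 of 95 passed, or 11.6% against 6.64% of all genes, with 5 higher and 6 lower. The Gi-coupled receptors held 9 of those 11, out of 21 tested. The beta and gamma subunits held 1 of 15, the other G protein regulators 1 of 10 and the remaining lists 0. C5ar1 rose by 2.25 ± 0.32 (adjusted p = 0.0001) and Hcar2 by 3.33 ± 0.4 (adjusted p = 1.9e-05). P2ry12 fell by 1.96 ± 0.44 (adjusted p = 0.0051), S1pr1, a receptor for sphingosine-1-phosphate, by 1.83 ± 0.29 (adjusted p = 0.00027) and Ptafr by 1.77 ± 0.3 (adjusted p = 0.00058). Gpsm2 passed as higher at a mean of 0.77 CPM, with at most 3 counts in a sham library. At 7 d 4 passed in WT mice, or 4.21% against 2.02% of all genes: Gnas (1.25 ± 0.17), which encodes Gs alpha, Hcar2 (2.50 ± 0.39) and P2ry14 were higher and P2ry13 was lower (-1.06 ± 0.25). P2ry14 had at most 1 count in a sham library and up to 42 at 7 d. In mutant mice at 7 d 1 passed, Hcar2 (2.04 ± 0.38, adjusted p = 0.011), or 1.05% against 0.663%.

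From 1 d to 7 d 12 of 95 passed in WT mice, or 12.6% against 7.06% of all genes, and 5 in mutant mice, or 5.26% against 3.54%. The Gi-coupled receptors held 9 of the 12 and 3 of the 5, out of 21 tested. C5ar1 fell by 3.15 ± 0.34 in WT mice (adjusted p = 1.4e-05) and by 2.55 ± 0.33 in mutant mice (adjusted p = 0.00012). The receptor kinase gene Grk3 rose by 1.86 ± 0.42 (adjusted p = 0.0063) and 1.48 ± 0.41 (adjusted p = 0.039). In the same interval P2ry12 rose by 2.05 ± 0.44 in WT mice (adjusted p = 0.0038), and Ptafr by 1.45 ± 0.3 in mutant mice (adjusted p = 0.0056). Hcar2 fell by 1.43 ± 0.37 in WT mice (adjusted p = 0.014) and by 1.29 ± 0.36 in mutant mice (adjusted p = 0.042). The chemokine receptor gene Ccr1 fell by 1.70 ± 0.34 in WT mice (adjusted p = 0.0022), and the phospholipase gene Plcb2 rose in mutant mice from 14.5 to 29.1 CPM, at the bar on the fold (adjusted p = 0.024). P2ry14 passed as higher in WT mice, from at most 1 count per library at 1 d to up to 42 at 7 d.

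Between genotypes 0 of 95 passed in microglia at 1 d and at 7 d in edgeR, against 0.0546% and 0.0378% of all genes. At an unadjusted p under 0.05 the counts were 13 and 6 of 95, where 5.08% and 3.34% of all genes were under it, and DESeq2 called 2 (Rgs20 and S1pr1) and 0. S1pr1, named here after its values were seen, was at 9.01, 12.1 and 11.7 CPM in WT and 3.09, 4.53 and 4.18 CPM in mutant microglia at 1 d, without overlap. Its log2 fold change was -1.48 ± 0.29 (adjusted p = 0.1, just over the threshold).

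In infiltrating cells against microglia 24 of 95 passed in WT mice (13 higher), or 25.3% against 11.9% of all genes, and 32 in mutant mice (17 higher), or 33.7% against 16.7%. The Gi-coupled receptors held 15 and 16 of these, of 21 tested, with 10 higher in each. That list includes the microglia markers Cx3cr1, P2ry12 and Gpr34, the monocyte marker Ccr2 and the neutrophil marker Cxcr2. All of these were called in both genotypes, and their calls restate the difference between the sorted cell types. Cxcr2, a neutrophil chemokine receptor, rose from 4.21 to 167 CPM ± 99.3 in WT mice (5.31 ± 1.03, adjusted p = 0.0011, edgeR) and from 1.11 to 149 CPM ± 17.3 in mutant mice (6.97 ± 1.12, adjusted p = 0.00015). Cxcr4, a chemokine receptor of leukocyte homing, rose from 5.4 to 210 CPM ± 29.7 (5.28 ± 0.85, adjusted p = 0.00019) and from 2.11 to 143 CPM ± 35.4 (6.02 ± 0.88, adjusted p = 5.7e-05). The leukotriene B4 receptor gene Ltb4r1 was among the highest in mutant mice at 18.7 CPM against 0.14 CPM. P2ry12 fell by 3.03 ± 0.45 on the log2 scale from microglia to infiltrating cells in WT mice and fell by 3.55 ± 0.47 in mutant mice. In WT mice Gpr34 fell by 3.51 ± 0.38 (adjusted p = 2.9e-06) and Adcy3, an adenylyl cyclase gene, fell by 3.25 ± 0.61 (adjusted p = 0.00078), and P2ry14 passed as higher, with up to 73 counts per infiltrating library and at most 1 in microglia. In mutant mice Gnb5 and Gng7 passed as lower, with 0 counts and at most 2 counts in an infiltrating library and means of 0.842 and 0.73 CPM in microglia.

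**Figure D5:**
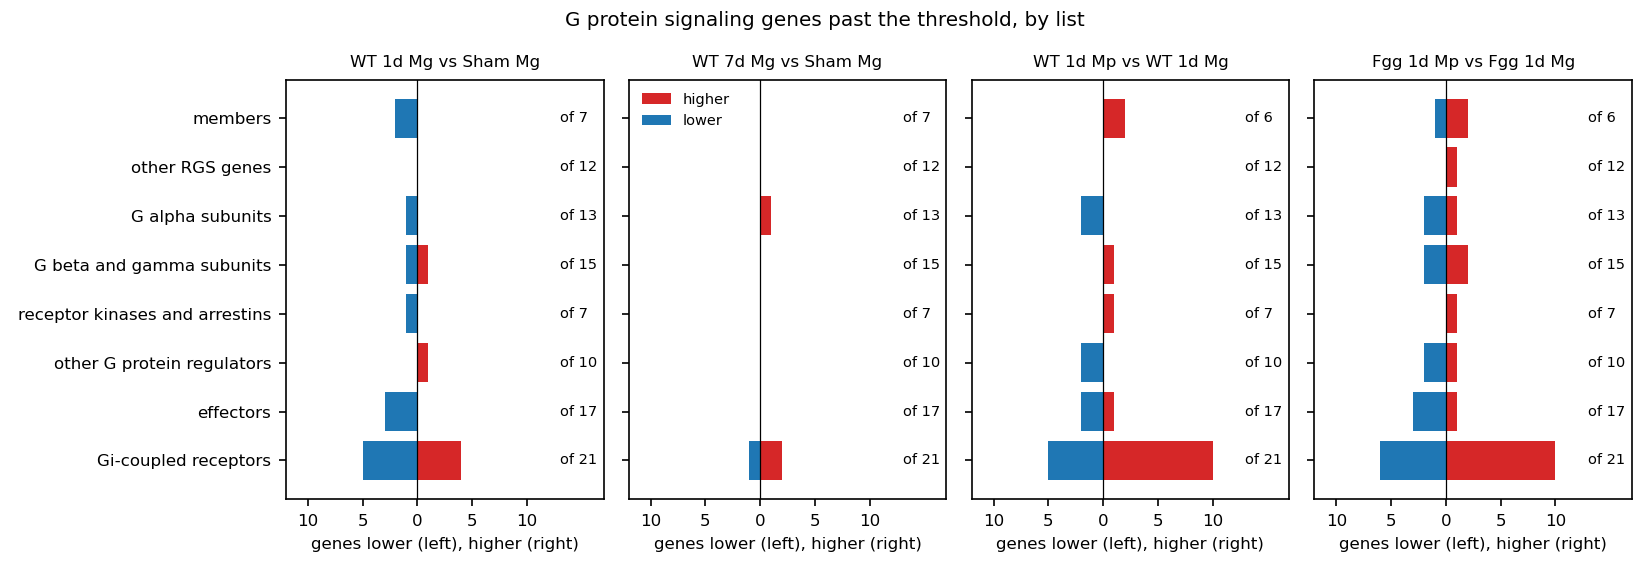
Number of genes that passed the test (x axes, lower to the left of 0 and higher to the right) for the 7 RGS genes and 7 lists of G protein signaling genes (y axis), in 4 comparisons with the number tested beside each bar. The Gi-coupled receptors hold more calls than any other list in each panel, with 9 of 21 in WT microglia at 1 d against sham controls. In infiltrating cells against microglia they hold 15 and 16 of 21, and this list includes markers of the sorted cell types.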

How the data were processed

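RNA of sorted cells was sequenced by the authors, who pooled 2 brains per library and ran the nf-core/rnaseq workflow with salmon on GRCm38, with R 4.2.0 and DESeq2 1.36.0 named in the submitters' processing notes. The deposited table holds salmon's estimated counts per gene, scaled by the authors for transcript length and library size, which makes them fractional. They were rounded to whole counts here, so the count model treats scaled estimates as counts. Of 45706 identifiers, 45143 were matched to GENCODE M21 and 563 were not, and 0 columns were left unused. The library kit was not taken to mark strand.

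Genes with at least 5 counts over all libraries were kept (23815). All 21 libraries entered one edgeR 4.0.16 fit (R 4.3.3) with a mean per group, TMM scaling and quasi-likelihood tests, adjusted by Benjamini-Hochberg. DESeq2 1.42.0 was an alternative. Other alternatives changed the filter, the scaling, the samples in the fit, the fold bar, the ribosomal RNA genes and the replicate block, or left out each library. Scaling by library totals was chosen after the data were seen. The 95% intervals are a normal approximation from the SE, and the floor of 3 counts covers counting error only. The fits were tested on simulated data.

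The 7 genes and all lists were chosen with earlier results of these data known. Named pathway genes are the 3 with the largest change in each direction among those that passed, or all where 5 or fewer passed, and genes like a member are the 3 with the highest r. Replicate numbers of the libraries are not said to mark shared animals or days. Same-numbered libraries deviated together with r over 0.1 in every pair only between genotypes in microglia at 1 d. There r was 0.474, 0.233 and 0.115 over 7888 genes. The replicate block changed no count of calls among the 7 RGS genes, while some counts of pathway genes moved, as given below. Some other comparisons had a lower positive r in every pair, such as WT infiltrating cells against WT microglia (0.202, 0.182 and 0.0573).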

Additional observations from a re-analysis of the deposited data

How the results depend on the processing

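Of 630 alternative values of single RGS genes, over 38 results, 612 kept their direction and side of the threshold, 8 lost it, 5 gained it and 5 turned. The cause of these changes was not tested, beyond what each setting does by construction. Of the 7 genes, the 2 called in WT microglia at 1 d against sham controls became 1 with a log2 fold bar of 1.5, and 1 to 2 when 1 library was left out: Rgs10 went under the bar without sham replicate 2, WT replicate 2 or WT replicate 3. DESeq2 called 1 (Rgs16) in place of 0 at 7 d against sham controls in WT mice. From 1 d to 7 d in WT mice the 1 call became 2 with DESeq2 (Rgs14 added), 2 with library totals without TMM (Rgs10 added, 1.00, adjusted p = 0.015) and 2 with no bar on the fold, and in mutant mice it became 0 with a bar of 1.5. In mutant infiltrating cells against microglia the 3 calls became 1 with that bar. There Rgs14 passed with DESeq2 (1.46, adjusted p = 0.012) and with edgeR's own expression filter (1.48, adjusted p = 0.032).

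Rgs1 turned to -0.10 in WT microglia at 1 d against sham controls with library totals without TMM. In mutant microglia at 1 d against sham controls, leaving out 1 library put it between -0.92 and 0.28, with 0.02 without mutant replicate 1, 0.28 without mutant replicate 2 and 0.14 without sham replicate 1. Rgs10 in mutant microglia at 7 d against sham controls ran from -0.16 to 0.00, the latter without mutant replicate 3. The Rgs1 difference between genotypes in infiltrating cells ran from -1.78 to -1.29 when 1 library was left out. Rgs1 was noted for this difference in these same libraries, so the range is a description and no support for it. The adjusted p of Rgs2 in WT microglia at 1 d against sham controls ran from 6.2e-14 to 0.0026 over the alternatives, that of Rgs10 from 2.2e-09 to 0.006, and that of Rgs18 in WT infiltrating cells against microglia from 6.6e-06 to 0.026.

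Of the 95 pathway genes, the 17 called in WT microglia at 1 d became 32 with library totals, 11 with a bar of 1.5 and 12 to 20 when 1 library was left out. The 4 called at 7 d became 12 (2 higher), 2 and 2 to 4, the last with the lowest value without WT replicate 2. Between genotypes at 1 d the count of 0 became 2 with DESeq2, 1 each with DESeq2 size factors, edgeR's own expression filter, no filter and without ribosomal RNA genes (S1pr1 each time), and 0 to 3 when 1 library was left out, with 3 without WT replicate 1 (P2ry12, Plcb2 and S1pr1). In infiltrating cells against microglia the split moved from 17 higher of 32 to 13 of 37 with library totals in mutant mice, and from 13 of 24 to 18 of 29 with DESeq2 size factors in WT mice. Library totals moved the median of all genes by -0.67 and -0.34 at 1 d and by -0.47 and -0.25 at 7 d against sham controls (WT and mutant mice).

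With the replicate block the members called were 2 and 1 at 1 d and 0 and 0 at 7 d against sham controls (WT and mutant), 1 and 1 from 1 d to 7 d, 0 and 0 between genotypes, 0 for the interaction, and 2 and 3 in infiltrating cells against microglia, so the block changed no count. The pathway genes called under the block were 17 at 1 d and 5 at 7 d in WT mice, 0 and 0 between genotypes, and 25 and 30 in infiltrating cells. The Rgs1 difference between genotypes in infiltrating cells, again a description, was -1.56. Depth limits Rgs16 and Rgs18 in microglia, at most 25 counts per library.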
